A study of Arabidopsis thaliana with 4 samples.

Results

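Beta carbonic anhydrases of Arabidopsis thaliana were taken as the 6 genes CA1 (AT3G01500), CA2 (AT5G14740), BCA3 (AT1G23730), CA4 (AT1G70410), BCA5 (AT4G33580) and BCA6 (AT1G58180), chosen by gene identifier from the 33602 entries of the expression table. All 6 had values in every library. With them came the 18 splicing events listed for these genes among 22449 events of all genes. The levels come from wild-type Col-0 seedlings that were grown in darkness for 4 days at 22 °C. They were then either harvested in the dark or lit for 4 h with white light at 100 µmol m-2 s-1. Total mRNA and polysomal mRNA, the messages loaded with several ribosomes, were sequenced from each condition. The 4 groups hold 1 library each (total dark, total light, polysomal dark and polysomal light), so no difference has a replicate check. All intervals are 95% and cover counting error only. The Pine Tree method was used to extract total RNA, while polysomal RNA went through phenol-chloroform, so effects of the fraction and of its extraction cannot be told apart. Reads were deposited as counts for total mRNA and as estimated counts for polysomal mRNA. Of the genes, 19.8% in polysomal dark and 20.4% in polysomal light had reads that were not whole, and none in total mRNA. The way of counting is therefore confounded with the fraction as well. Whole seedlings were used, so fewer cells of a type and less mRNA per cell cannot be told apart either.

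Carbonic anhydrases are zinc enzymes that interconvert carbon dioxide and bicarbonate. Plants have alpha, beta and gamma families that are unrelated in sequence. In Arabidopsis the beta enzymes are spread over the cell. CA1 and BCA5 reside in the chloroplast, CA2 and BCA3 in the cytosol and BCA6 in mitochondria. A CA4 protein resides at the plasma membrane. CA4 is annotated with proteins of 280 and 258 residues, and where each resides was not measured here. CA1 and CA4 act in guard cells, where they are needed for the closing of stomata in high carbon dioxide. Bicarbonate is also the substrate of carboxylases such as phosphoenolpyruvate carboxylase and acetyl-CoA carboxylase.

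The condition labels were checked with genes of known light response. PORA, the protochlorophyllide oxidoreductase of etiolated tissue, had 109.67 RPKM (reads per kilobase per library, scaled for depth) in total dark and 2.0 RPKM in total light. ELIP1, a light-stress protein of the thylakoid, had 1.74 and 155.73 RPKM. Listed reads ran from 61006149 to 91087442 per library. Of the 5 root markers SHR and SCR passed the filter on low values, at 9.85 to 23.5 RPKM over the 4 libraries. The other root markers, PLT1, PLT2 and WOX5, have no value in the table. Of 5 seed storage markers 4 passed, with a highest value of 125 RPKM, for CRA1 in polysomal dark. All 8 guard cell lineage markers passed, and their summed level was 18.5 and 28.5 RPKM in total dark and light and 37.3 and 50.1 RPKM in polysomal dark and light. No marker with values was at 0, and the part of other cell types in the results below was not tested.

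The sequences that carry the main splicing result are the splice sites of CA4 intron 2. CA4 lies on the minus strand of chromosome 1 from 26533824 to 26538437 (TAIR10.1 annotation from RefSeq). Intron 2 of its model AT1G70410.2 runs from 26536518 to 26537403, 886 bases. The event tables name positions within it by their distance from the annotated sites. The 30-base windows below were read 5′ to 3′ from the TAIR10.1 genome, and capitals mark the first 2 or last 2 intron bases.
CA4 intron 2 upstream donor: aacctccccgGTaagtcccagcaacaactc
CA4 intron 2 donor at +800: atcctttaagGTttctctcatcagatccaa
CA4 intron 2 acceptor: ttgttgtttgtattcattAGgaaaaagacg
The window at +800 holds the same GT as the annotated donor. Joining it to the annotated acceptor removes 86 bases, from 26536518 to 26536603, that begin with GT and end with AG. That donor is the end of the first exon of another annotated model, AT1G70410.3, whose first base is 26537422. The AT1G70410.2 model starts upstream at 26538437 and places its start codon at 26537457, ahead of intron 2, for a protein of 280 residues. AT1G70410.3 and AT1G70410.1 start their coding sequence at 26536505, after that intron, for 258 residues.

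In total mRNA, the share of CA4 reads from the donor at +800 was lower in light and that of the upstream donor higher. In the dark 262 of 274 reads over these 2 junctions used the donor at +800 (95.6%, interval 92.5% to 97.7%). In the light 216 of 394 reads did (54.8%, 49.8% to 59.8%). The intervals do not overlap. Reads were set against depth as RPM, reads scaled to the listed reads of the library. The upstream junction had 12 reads in the dark (0.185 RPM) and 178 in the light (1.95 RPM), a 10.6-fold rise (5.91 to 20.9). The junction from the donor at +800 went from 262 reads (4.03 RPM) to 216 (2.37 RPM), 1.70-fold lower (1.42 to 2.05). Both junctions together had 4.22 RPM in the dark and 4.33 RPM in the light, a ratio of 1.03 (0.877 to 1.20). So the makeup of this junction changed while its summed reads differed by less than counting error. AT1G70410.2 and AT1G70410.3 are annotated with different first bases. Use of another transcript start and use of another donor therefore cannot be told apart from these junction reads.

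The same direction was seen in polysomal mRNA, where the authors give percents without reads. There the donor at +800 held 81.9% (dark) and 63.9% (light). Light lowered the share by 40.8 percentage points in total mRNA and by 18 in polysomal mRNA. The depth of the polysomal percents is unknown, so no interval can be given.

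**Figure D1:**
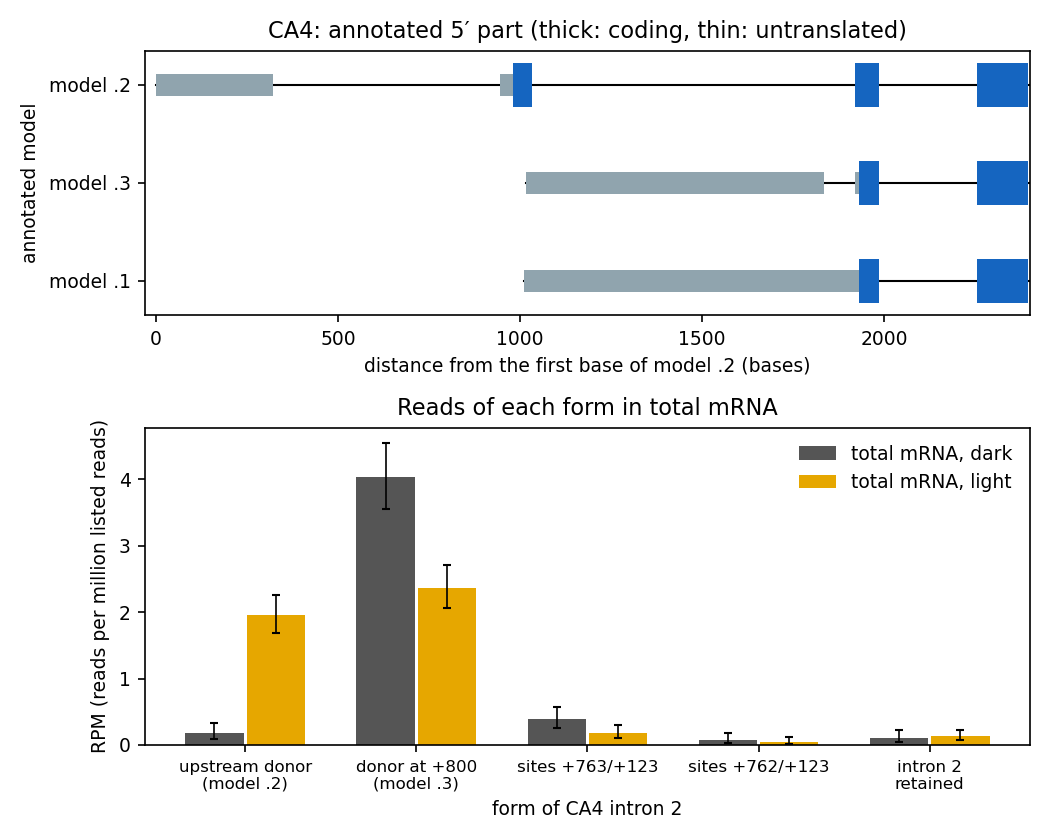
Top: annotated 5′ part of the CA4 models, by distance in bases from the first base of AT1G70410.2, with coding exons thick, untranslated exons thin and introns as lines. Bottom: RPM (y axis, reads scaled to the listed reads) of each form of intron 2 in total dark and total light, with 95% Poisson intervals; the upstream donor stands at 0.185 in the dark and 1.95 in the light.

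Retention of CA4 intron 2 was listed at 22.6% in the dark (7 reads) and 3.26% in the light (12 reads) of total mRNA. The listed percent of a retained intron counts each spliced read 2 times: the 12 and 178 reads of the upstream junction enter it as 24 and 356. In all 13845 retained introns of the tables the reads set against the retained form were an even number. Intervals of retained introns were therefore computed with each spliced read counted once and then put on the listed scale. The retained form had 0.108 and 0.132 RPM, a ratio of 1.22 with an interval of 0.444 to 3.66. The listed percent thus fell with the reads of the upstream junction in its denominator, which rose, while reads of the retained form did not change beyond counting error. In polysomal mRNA the retained form was listed at 5.38% in the dark and 2.63% in the light. AT1G70410.1 is annotated with an exon that runs through this intron.

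The other CA4 events, with shifted sites at +763/+123 and +762/+123, need care in reading. Placed on the annotated intron of 886 bases, they leave out 0 and 1 bases, so they are no introns in the usual sense. Such events were 35 of the 5904 donor or acceptor events of all genes that could be placed on annotated models. The position at +763 lies in a purine-rich stretch, where capitals mark the bases on either side of it.
CA4 intron 2 at +763: actctccagagaaaGAaaaaaaaaacctcc
Their reads went from 25 to 17 and from 5 to 4, against percents of 67.6% to 8.72% and 29.4% to 2.20%. The first was 2.06-fold lower in RPM (1.07 to 4.07) and the second had a ratio of 0.57 (0.113 to 2.65). The authors' deposited table gives p = 1.29e-45 for the first, from their own chi-square test of light against dark. That p was not recomputed, and the forms it compares are not known from the reads above.

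Turning to the levels of whole genes, the chloroplast gene CA1 had the largest light response of the 6. In total mRNA it had 13.87 RPKM dark and 599.9 RPKM light, and in polysomal mRNA 131.67 and 1504.6 RPKM. Both light libraries lie above both dark libraries. The rise was 43.3-fold in total mRNA (41.5 to 45.1) and 11.4-fold in polysomal mRNA (11.2 to 11.6). In total mRNA CA1 went from rank 7430 to rank 89 of 18584 genes with values in all libraries.

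BCA5, the other chloroplast member, stayed within 2-fold. In total mRNA it had 66.89 RPKM dark and 81.86 RPKM light, and in polysomal mRNA 48.505 and 49.294 RPKM. It was 1.22-fold higher in light in total mRNA (1.19 to 1.26), and the polysomal ratio of 1.02 had an interval that spans 1 (0.975 to 1.06). Its 2 polysomal values lie below its 2 total values.

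CA2, the main cytosolic member, was abundant in every library. In total mRNA it had 669.34 RPKM dark and 513.86 RPKM light, and in polysomal mRNA 1366.5 and 834.31 RPKM. It was lower in light in both fractions, 1.3-fold in total (1.29 to 1.32) and 1.64-fold in polysomal mRNA (1.62 to 1.65), short of the 2-fold threshold used for calls. BCA3, the other cytosolic gene, was barely detected, with 0.95, 0.96, 0.64 and 0.803 RPKM in the same order, from 49.175 to 88 reads. Its light ratios of 1.01 (0.722 to 1.42) and 1.25 (0.829 to 1.90) span 1. BCA3 did not reach the mean of 1 RPKM required for calls, so 5 of the 6 genes were compared.

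CA4 had 56.79 RPKM dark and 86.8 RPKM light in total mRNA, and 174.06 and 191.53 RPKM in polysomal mRNA. In light it was 1.53-fold higher in total (1.49 to 1.57) and 1.1-fold in polysomal mRNA (1.08 to 1.12), short of the threshold. The polysomal libraries lie above the total libraries in both conditions. The whole gene thus had a light ratio of 1.53 in total mRNA, and its upstream junction one of 10.6. The upstream junction and that from the donor at +800 together had a ratio of 1.03 (0.877 to 1.20). That interval lies below the interval of the whole gene, so the rise of the gene was not seen in the summed reads of these junctions. The cause was not tested.

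BCA6, the mitochondrial member, was lower in light, unlike CA1. In total mRNA it had 140.5 RPKM dark and 69.08 RPKM light, and in polysomal mRNA 151.94 and 39.19 RPKM. The light values were 2.03-fold lower in total (1.98 to 2.09) and 3.88-fold in polysomal mRNA (3.73 to 4.03). The call in total mRNA sits at the threshold, at -1.01 on the log2 (RPKM + 1) scale. With a pseudocount of 5 the log2 ratio was -0.97, and with ratios centred on the median gene it was -0.98, so both alternatives end the call.

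**Figure D2:**
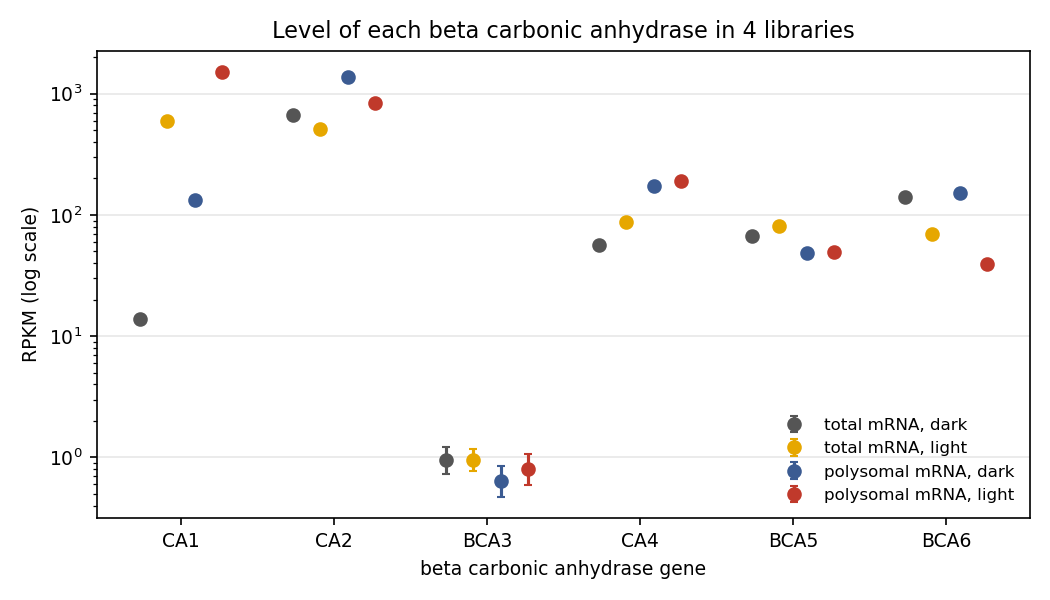
RPKM (y axis, log scale) of the 6 genes (x axis) in the 4 libraries, 1 point per library with a 95% Poisson interval from its reads, mostly smaller than the point. CA1 spans 13.87 to 1504.6 RPKM, and BCA3 stays under 1 RPKM.

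Counted at 2-fold on the log2 (RPKM + 1) scale, 1 of the 5 compared genes was higher in light in total mRNA (CA1) and 1 was lower (BCA6). Over all 17684 genes compared, 10.7% were higher, 5.73% lower and 16.4% either. In polysomal mRNA the same genes passed, CA1 up and BCA6 down, where 9.35% of all genes were higher, 10.3% lower and 19.6% either. The median log2 ratio of the 5 genes was 0.29 in total and 0.02 in polysomal mRNA, against -0.02 and -0.17 over all genes. With so few genes these counts describe CA1 and BCA6 rather than the family.

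The summed level of the family had a smaller light ratio than CA1. The 6 genes together had 948.3 RPKM in total dark and 1352 in total light, a ratio of 1.43 (1.42 to 1.44). In polysomal mRNA the sum went from 1873 to 2620 RPKM, a ratio of 1.4 (1.39 to 1.41). Without CA2 the ratios were 3.01 and 3.52.

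The makeup of the family differed between dark and light. CA2 gave 70.6% of the summed RPKM in total dark and 38.0% in total light. CA1 gave 1.46% in total dark and 44.4% in total light. In polysomal mRNA CA2 went from 72.9% to 31.8% and CA1 from 7.03% to 57.4%. BCA6 fell from 14.8% to 5.11% in total and from 8.11% to 1.5% in polysomal mRNA.

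**Figure D3:**
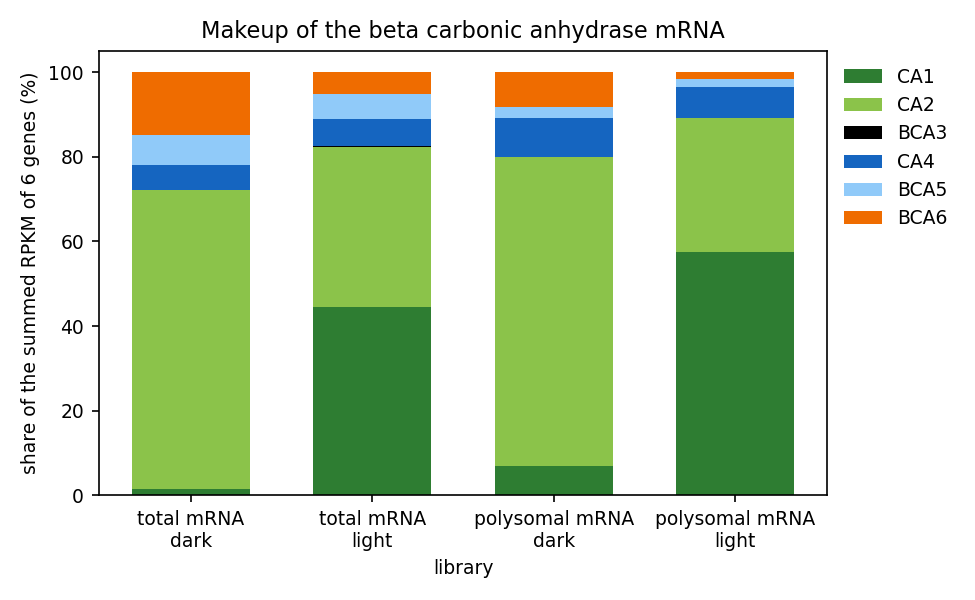
Share (y axis, %) of each gene in the summed RPKM of the 6 genes, 1 stacked bar per library (x axis). CA2 leads in both dark libraries (70.6% and 72.9%) and CA1 in both light libraries (44.4% and 57.4%).

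The order of the levels was CA2, BCA6, BCA5, CA4, CA1 and BCA3 in total dark, and CA1, CA2, CA4, BCA5, BCA6 and BCA3 in total light. In polysomal dark it was CA2, CA4, BCA6, CA1, BCA5 and BCA3, and in polysomal light CA1, CA2, CA4, BCA5, BCA6 and BCA3. No neighbours had overlapping counting intervals, but the closest pair, CA4 and BCA5 in total light, differed by a ratio of 1.06 in RPKM. Differences of that size between single libraries cannot be read as stable. All 24 ranks were the same when reads were scaled by TMM or to RPM and divided by a single length per gene.

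CA1 and CA2 are the most alike in sequence. Their longest coding sequences were identical at 79.5% of 986 aligned bases, the highest of the 15 pairs, followed by BCA3 and CA4 at 77.7%. The longest run common to both is 42 coding bases, on chromosomes 3 and 5, shown because a read that lies within it matches both genes. How such reads were assigned is not given in the sources used here.
CA1 and CA2 shared run: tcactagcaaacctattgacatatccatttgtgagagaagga
In polysomal light the deposited reads were 148575.076 for CA1 and 78126.924 for CA2, not whole, and they add up to 226702. In the other 3 libraries both were whole. The sum of both genes was 683.2 RPKM in total dark and 1114 in total light, and 1498 and 2339 RPKM in polysomal mRNA, light ratios of 1.63 and 1.56.

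The loci of CA1, BCA3 and BCA5 overlap others, and the use of strand in counting is not given in the sources used here. CA1 shares 343 bases with AT3G01510 on the same strand, which had 2.71 and 4.45 RPKM in total dark and light. BCA3 shares 273 bases with AT1G23740 on the opposite strand, which had 14.65 and 104.43 RPKM. BCA5 shares 37 bases with AT4G33565 and 90 with AT4G33585. CA2, CA4 and BCA6 overlap no annotated gene.

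Polysomal against total mRNA compares how much of each message was found on polysomes, on a relative scale. The fractions also differ in extraction and in how reads were counted, and these effects cannot be taken apart. In the dark 3 of the 5 genes were at least 2-fold higher in polysomal mRNA, CA1 (9.49-fold, 9.08 to 9.93), CA4 (3.06-fold, 2.98 to 3.15) and CA2 (2.04-fold, 2.02 to 2.06), where 16.5% of all genes were higher, 16.2% lower and 32.7% either. In the light 2 were higher, CA1 (2.51-fold) and CA4 (2.21-fold), where 12.8% of all genes were higher, 21.4% lower and 34.1% either. BCA5 was lower in polysomal mRNA in both, 1.38-fold in the dark and 1.66-fold in the light. BCA6 had a ratio of 1.08 in the dark and was 1.76-fold lower in the light.

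The CA1 values rest on a length that differs between the fractions. The length behind a deposited RPKM can be had from its reads, as RPM divided by RPKM. It was 2.43 and 2.42 kb for CA1 in total mRNA and 1.62 kb in both polysomal libraries, a ratio of 0.669. Over 6424 genes with at least 1000 reads in each library the median ratio was 0.957, and 2.62% lay below that of CA1. For CA2, BCA3, CA4 and BCA5 the ratio lay between 0.95 and 1.00, and for BCA6 it was 0.888. Counted in RPM, CA1 was 6.35-fold higher in polysomal mRNA in the dark (6.07 to 6.64) and 1.68-fold in the light (1.66 to 1.69), which ends its call in the light. CA2 was then 1.98-fold higher in the dark, which ends its call, and CA4 2.91-fold and 2.10-fold. BCA6 was then 1.04-fold lower in the dark, so its direction there depends on the length used. The light ratio of a single gene within a fraction is free of this difference, but sums and shares over the family are not. With 1 deposited length per gene the summed light ratio in polysomal mRNA was 1.18 in place of 1.40. CA1 then gave 4.98% of the family in polysomal dark and 48.3% in polysomal light, and CA2 75.3% and 39.0%.

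Another scaling, to an equal sum over nuclear genes, moved the median of all genes by -0.54 on the log2 scale in both comparisons of polysomal with total mRNA. Under it CA1 and CA4 kept their call in the dark only, CA2 lost its call, BCA5 was past 2-fold lower in both conditions and BCA6 in the light. BCA6 in the dark had a log2 ratio of -0.47 under that scaling.

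The light change of the polysomal to total ratio was past 2-fold in 1 gene, CA1, which was lower by 1.83 on the log2 scale, where 3.27% of all genes were at least 2-fold lower, 0.741% higher and 4.01% either. BCA6 followed at -0.91, CA4 at -0.47, CA2 at -0.33 and BCA5 at -0.26. All 5 values lie below the median of all genes, which was -0.18. CA1 kept its call under all 9 alternatives, with log2 ratios of -1.91 to -1.54, though those that only change the filter on low values could not change it. The ratio is built from the same 4 libraries as the comparisons above, so it adds no separate evidence.

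**Figure D4:**
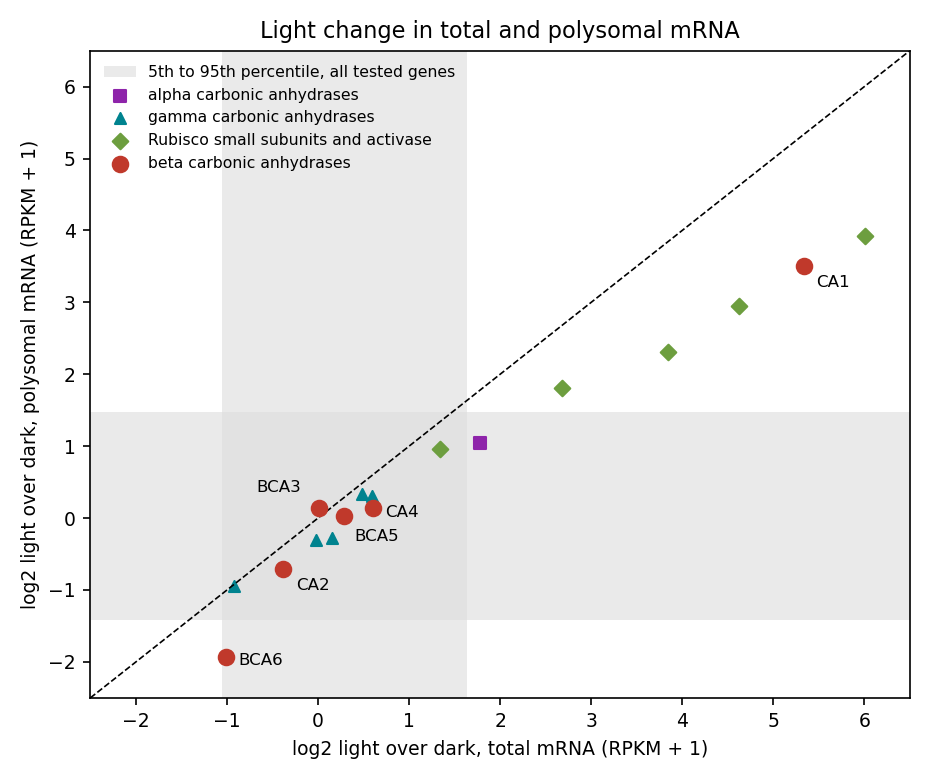
Log2 light over dark of (RPKM + 1) in total mRNA (x axis) and polysomal mRNA (y axis), 1 point per gene, for the beta, alpha and gamma carbonic anhydrases and the Rubisco genes; gray bands hold the 5th to 95th percentile of all tested genes and the dashed line marks equal change. CA1 lies below the line at 5.34 and 3.50, and BCA6 at -1.01 and -1.93.

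Other carbonic anhydrases and carbon genes gave the setting. Of 8 alpha carbonic anhydrases only ACA1 passed the filter, with 4.08, 16.43, 11.162 and 24.114 RPKM in total dark, total light, polysomal dark and polysomal light. ACA1 was higher in light by 1.78 (total) and 1.05 (polysomal) on the log2 scale. The 5 gamma genes encode subunits of mitochondrial complex I. None of them was past 2-fold in light in either fraction, and GAMMA_CAL2 was lowest at -0.92 and -0.94.

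The Rubisco list holds the small subunits and the activase RCA, which keeps Rubisco active. All 5 genes were higher in light in total mRNA and 4 of 5 in polysomal mRNA, where 10.7% and 9.35% of all genes were. Their median log2 ratios were 3.84 and 2.31. CA1, at 5.34 and 3.50, lies between RCA (4.62 and 2.95) and RBCS1B (6.01 and 3.93). In the change of the polysomal to total ratio 3 of the 5 were at least 2-fold lower, with RBCS1B at -2.08, where 3.27% of all genes were. RBCS1B had 4.45 RPKM in total dark and 297.98 RPKM in polysomal dark. Whether the RBCS genes share reads, and how such reads were split in each fraction, was not examined.

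Among 12 measured carboxylase genes that use bicarbonate, 1 was higher in light in total mRNA and 2 were lower. PPC2, a phosphoenolpyruvate carboxylase, was higher at 1.1, and MCCB, a subunit of methylcrotonyl-CoA carboxylase, was lowest at -1.68. In polysomal mRNA 1 was higher and 3 were lower, with MCCA lowest at -2.77. Of 12 measured genes of the stomatal carbon dioxide response 1 was higher and 1 lower in both fractions, EPF2, a peptide that limits stomatal number, and CRSP, the protease that acts on it. EPF2 had 0.20 RPKM in total dark and 1.81 in total light, and CRSP 20.67 and 3.68 RPKM. HT1, OST1, MPK4 and MPK12, kinases of that response, stayed within 2-fold in both fractions. Of the 8 guard cell lineage markers 3 were higher in light in total mRNA and none lower, and in polysomal mRNA 4 were higher and 1 lower. Over all genes compared, 10.7% were higher and 5.73% lower in total mRNA, and 9.35% and 10.3% in polysomal mRNA. Among the markers higher in total mRNA, SPCH and EPF2 had only 0.7 and 0.2 RPKM in total dark. KAT1 was the lower one in polysomal mRNA, at -1.3 on the log2 scale. CA1 and CA4 were measured in whole seedlings, so their level in guard cells was not measured.

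The genes most like each member were sought among the 4733 named genes whose mean level reached 10 RPKM, by the Euclidean distance over 3 log2 ratios from the 4 libraries. For CA1 they were FBA1, PSB28 and LHB1B1 at distances of 0.46, 0.77 and 0.78. FBA1 had 8.43, 322.3, 76.54 and 679 RPKM in the order given above. For BCA6 they were CYP705A22 (0.16), EXL2 (0.23) and RR1 (0.27), and for CA2 LOG8 (0.07), GOS12 and APS4 (both 0.11). For CA4 they were FLA13 (0.07), SK4 (0.12) and BRK1 (0.15), and for BCA5 TRB1 (0.076), RLK4 (0.09) and GTE7 (0.093). CA1 had no neighbour as near as the others had.

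Splicing events were listed for all 6 genes, 13 retained introns and 5 shifted donor or acceptor sites. BCA6 had 8 of the 18, CA4 4, CA1 and BCA5 2 each, and CA2 and BCA3 1 each. In total mRNA the percent differed at least 1.5-fold between dark and light in 12 of the 18, where 52.2% of all events did. The authors set 12 of the 18 as light-regulated, where 17.0% of all events were. The intervals in dark and light did not overlap in 10 of the 18, where this was so for 8.83% of the 21568 retained introns and donor or acceptor events of all genes. Whether intervals overlap depends on the reads of an event, and events were not matched for reads here. Nor are the 18 events separate observations. All 4 CA4 events are set against the same upstream junction, with 12 reads in total dark and 178 in total light. Each of the 3 counts above includes all 4 of them. The other events with intervals apart are introns 1, 2, 5, 7 and 9 of BCA6 and intron 8 of CA1. These counts therefore describe a few genes and do not show that the family differs from all genes.

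**Figure D5:**
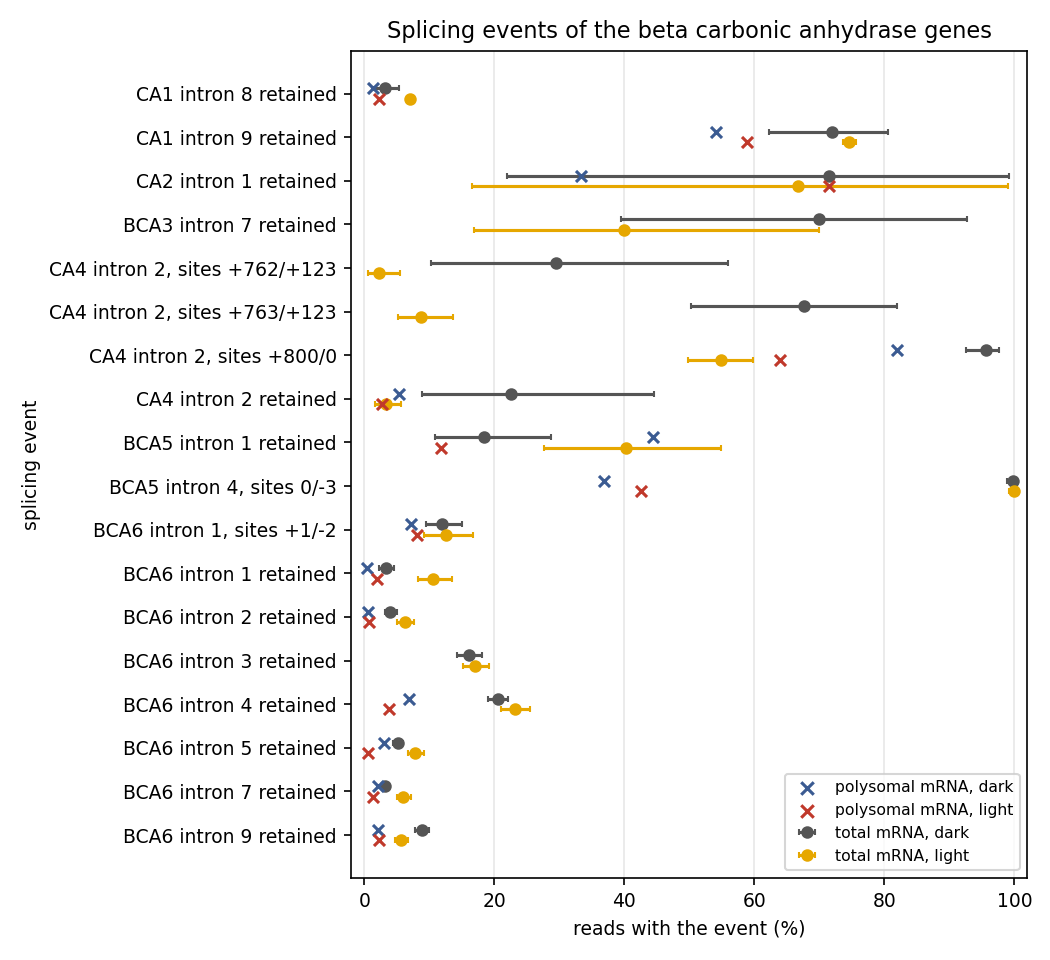
Percent of reads with each splicing event (x axis) for the 18 events of the 6 genes (y axis), in total mRNA (dots with 95% exact binomial intervals, spliced reads counted once) and polysomal mRNA (crosses, no interval). The donor at +800 of CA4 goes from 95.6% to 54.8% in total mRNA, and 2 CA1 introns differ in level, near 3.24% and 71.9% in the dark.

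The listed percent of BCA6 retention in total mRNA was higher in light for several introns of the model AT1G58180.2. Retention of intron 1 rose from 3.26% (34 retained and 505 spliced reads, interval 2.25% to 4.55%) to 10.6% (67 and 284, 8.17% to 13.4%), and that of intron 7 from 3.13% to 5.97%. Introns 2 and 5 went from 4.0% to 6.28% and from 5.12% to 7.81%. The intervals of these 4 do not overlap between dark and light. Introns 3 and 4, the most retained, went from 16.1% to 17.0% and from 20.5% to 23.2%, with overlapping intervals. Intron 9 went the other way, from 8.81% to 5.65%. Annotated models retain intron 1 (AT1G58180.6), intron 3 (AT1G58180.3) and intron 9 (AT1G58180.5).

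For BCA6 intron 1 the 2 forms can be read separately. The spliced junction went from 505 reads in the dark (7.78 RPM) to 284 in the light (3.12 RPM), 2.49-fold lower (2.15 to 2.89). The retained form had 34 and 67 reads, a ratio in RPM of 1.41 (0.917 to 2.19). The level of the gene was 2.03-fold lower in the light, the spliced reads were lower too, and the interval of the retained form includes 1. The sites of that intron, on the minus strand of chromosome 1 from 21539616 to 21539695, have the usual ends, in capitals.
BCA6 intron 1 donor: tttacactagGTgagtcttaagatcaaaat
BCA6 intron 1 acceptor: cgttttgttgccttgatcAGgtggaagagc
A second junction there, shifted by 1 base at the donor and 2 at the acceptor, leaves out 81 bases that begin with TG and end with GT. It held 12% in the dark and 12.6% in the light.

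In polysomal mRNA all 6 retained BCA6 introns with a value were lower than in total mRNA in both conditions. The share of retained introns of all genes that were lower was not computed, so this is not shown to be particular to BCA6. Intron 4 had 6.81% (dark) and 3.77% (light), and intron 1 had 0.424% and 1.98%. Between dark and light, introns 1, 2 and 9 were higher in light and introns 4, 5 and 7 lower.

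The CA1 introns 8 and 9 of AT3G01500.2 differ in how often they are retained. Intron 9, from 194892 to 195178 on the minus strand of chromosome 3, was retained at 71.9% in the dark (123 retained and 24 spliced reads) and 74.6% in the light (9709 and 1650). Intron 8, from 195338 to 195405, was retained at 3.24% (15 and 224) and 7.04% (2210 and 14591), and its intervals do not overlap. Intron 9 is retained in the annotated models AT3G01500.3 and AT3G01500.4, which end their coding sequence at 195173, just inside it, and AT3G01500.1 and AT3G01500.2 at 194853. The donors of both introns are shown for comparison, with the first 2 intron bases in capitals.
CA1 intron 8 donor: atgtgaaaggGTatacaaacacatgttaga
CA1 intron 9 donor: aactagctctGTatgaaccaatccatcatc
In polysomal mRNA intron 9 was retained at 54.1% (dark) and 58.8% (light), and intron 8 at 1.36% and 2.25%. The form with intron 9 retained was thus the larger share in all 4 libraries.

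BCA5 had a retained intron in its 5′ untranslated region, intron 1 of AT4G33580.2, from 16138475 to 16139329 on the plus strand of chromosome 4. It was retained at 18.4% in the dark (18 retained and 40 spliced reads) and 40.3% in the light (31 and 23) of total mRNA. The intervals, 10.8% to 28.7% and 27.6% to 54.8%, overlap. In polysomal mRNA it was listed at 44.4% (dark) and 11.8% (light), the opposite direction. The other BCA5 event joins intron 4 to an acceptor 3 bases further on, shown with the last 2 bases of both alternative introns in capitals.
BCA5 intron 4 reference acceptor: cctgatgatattctcttgAGcAGggatgac
The further acceptor removes 93 bases in place of 90 and corresponds to a coding sequence of 906 bases in AT4G33580.1 against 909 in AT4G33580.2, 301 and 302 residues. In total mRNA it was used in 525 of 526 reads in the dark and 729 of 730 in the light. In polysomal mRNA it was listed at 36.8% and 42.6%. Over the 50 donor or acceptor events above 99% in total dark that have polysomal values, the median in polysomal dark was 94.9%, and 12 lay under 40%. The authors' deposited table gives p = 8.37e-09 for this event between dark and light in total mRNA, although its percent was 99.8% and 99.9%, so that p does not compare the percents alone.

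Retention of CA2 intron 1 rests on 5 retained reads in the dark and 4 in the light, each against 1 spliced read. That of BCA3 intron 7 rests on 14 retained and 3 spliced reads in the dark and on 8 and 6 in the light. Their dark and light intervals overlap, from 21.9% to 99.2% in the dark for CA2, and from 39.4% to 92.7% and 16.9% to 70.0% for BCA3. The authors' deposited table gives p = 0.739 for the first and 0.00257 for the second.

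Over the 14 events with a polysomal value, 8 differed at least 1.5-fold between dark and light, where 49.5% of all events with such a value did. The direction of the light change was opposite in total and polysomal mRNA in 6 of the 14, where this was so for 41.8% of 7967 events.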

How the data were processed

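The authors deposited a table of gene lengths, reads and RPKM per library and tables of splicing events, built on TAIR10 per the submitters' processing notes. Aligner and counting program: not given in the sources used here. Per the file headers, total mRNA reads are counts and RPKM values are the authors' own. Polysomal reads were deposited by the authors as estimated counts, since part of them are not whole, with no step named for how reads were split. The deposited event tables hold event read counts, percent values, log2 ratios and a p-value by the authors.

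Folds are ratios of RPKM. Calls are log2 ratios of (RPKM + 1), a pseudocount of 1, at 2-fold or more, among 17684 genes whose mean over the 4 libraries reached 1 RPKM. Intervals are exact at 95% (Poisson for levels, binomial for folds and percents; a normal approximation on the log scale for the ratio change), computed from reads rounded to whole numbers. Event totals were recovered as event reads divided by percent and came out whole within 0.01 for all 18 events; for retained introns the other reads were divided by 2 to give spliced reads. With 1 library per group no test was run across genes. TMM factors came from edgeR 4.0.16, other values from Python 3.11.15 with scipy 1.17.1 and alignments from Biopython 1.88. Ratio and interval code was tested on simulated data.

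Sequences and coordinates are from RefSeq's TAIR10.1. All 6 members are named; of other lists, the genes with the highest and lowest ratio, those past 2-fold in short lists and a few picked after their values were seen. Members and lists were chosen with earlier results of these data known.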

Additional observations from a re-analysis of the deposited data

Results flagged for a closer look

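The light change of the percent had opposite directions in total and polysomal mRNA for 6 events, and no difference was tested, with 1 library per group. Values are the polysomal minus the total log2 light change. BCA5 intron 1 had -3.05. BCA6 introns 4, 5, 7 and 9 had -1.03, -3.11, -1.55 and 0.689 (retention of introns 4, 5 and 7 was higher in light in total and lower in polysomal mRNA, and that of intron 9 the reverse). CA2 intron 1 had 1.20, from 6 and 5 reads in total mRNA. The read numbers behind the polysomal percents are unknown.

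BCA6 was on opposite sides of an equal polysomal and total level in dark and light, with a difference of -0.914 on the log2 (RPKM + 1) scale. This was not tested. In RPM (reads scaled to the listed reads) BCA6 was lower in polysomal mRNA in both, 1.04-fold in the dark and 1.99-fold in the light.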

How the results depend on the processing

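Of 43 recomputed counts of members past 2-fold, 40 were within 1.5 times the reported count and 38 were identical. Settings with no filter on low values or with a mean of at least 5 RPKM could not change a count. The 5 compared genes lie far above that mean, and BCA3 had no ratio near 2-fold. An identical count can also hold other genes. In total mRNA 1 gene in place of 2 was past 2-fold in light with a pseudocount of 5 or with ratios centred on the median gene, since BCA6 fell short. In polysomal against total mRNA in the light, reads scaled to the listed total per deposited length, a setting that was added once the data had been seen, left 1 gene in place of 2, and TMM gave 3, with CA2 past 2-fold at a log2 ratio of 1.17. Under the scaling to nuclear genes that comparison kept a count of 2, but of BCA5 and BCA6 in place of CA1 and CA4. In the dark it kept 3, with BCA5 (lower) in place of CA2.

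The summed level of the family, by ratio, moved with most scalings. Centred on the median gene it was 1.46 for light in total mRNA, 1.63 for light in polysomal mRNA, 2.08 for polysomal over total in the dark and 2.34 in the light. Scaled to nuclear genes it was 1.37, 1.34, 1.31 and 1.28, and by TMM 1.39, 1.36, 2.26 and 2.21. Without CA2 it was 3.01, 3.52, 1.82 and 2.13. With reads per deposited length it was 1.42, 1.18, 1.86 and 1.54. The light change of its polysomal to total ratio, 0.981, was 0.828 with those reads and reversed to 1.13 when centred and to 1.17 without CA2, but was 0.975 scaled to nuclear genes and 0.976 by TMM; the cause was not tested.

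Among events of at least 10% in 1 library, 7 of 13 differed 1.5-fold in total mRNA and 5 of 9 in polysomal mRNA, a smaller set by construction. Without that limit 52.2% and 49.5% of the events of all genes differed so. The shares of all events with the limit were not computed, so these counts are no result about the members. No paired analysis was possible because each group holds 1 library. Depth limits BCA3, CA2 intron 1 and BCA3 intron 7.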
